A study of Mus musculus with 24 samples.

Results

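Antigen presentation by liver epithelium was described through 10 genes, B2m, H2-K1, H2-D1, Tap1, Tap2, Psmb8, Psmb9, Nlrc5, Cd74 and H2-Ab1, which were chosen by symbol and found in all 3 deposited expression tables, out of 37818 gene symbols listed over the tables. The samples were 24 mouse liver libraries. Of these, 21 were bulk poly(A) libraries in 7 groups of 3, and 3 were Smart-Seq libraries, which start from full-length amplified cDNA, with 1 library per group. All cells came from wild-type BALB/c mice aged 6 to 8 weeks, with no transgene or deletion. The hepatocyte table held primary hepatocytes (Pri-Hep), isolated by Percoll gradient and EpCAM-negative bead selection, and hepatocyte organoids (Hep-Orgs) at passages P1, P5 and P10, grown in Matrigel in Hep-Med with DAPT, a Notch pathway inhibitor, and dexamethasone, a glucocorticoid. The cholangiocyte table held organoids from EpCAM+ cells (Cho-Orgs) at P0, P5 and P10. Their medium held Wnt3a, noggin and forskolin and no DAPT or dexamethasone, and A83-01 is listed for both organoid media. The Smart-Seq table held Hep-Orgs at P0, picked by shape as grape-like, intermediate or round-like and grown in Hep-Med. Levels are in FPKM, a fragment count scaled by gene length and by library depth, which allows levels of different genes to be set side by side. Each table was normalized on its own, and no test was made between tables.

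Class I molecules show peptides from inside the cell to CD8 T cells. The proteasome cuts these peptides, the TAP transporter carries them into the endoplasmic reticulum, and a heavy chain, here H2-K1 or H2-D1, is loaded with a peptide while bound to beta-2-microglobulin, the product of B2m. Under interferon gamma, the immunoproteasome subunits Psmb8 and Psmb9 replace constitutive subunits, and Nlrc5 acts as the transcriptional coactivator of class I genes. Class II molecules, with H2-Ab1 as a beta chain and Cd74 as the invariant chain, belong mainly to macrophages, dendritic cells and B cells, and epithelial cells such as cholangiocytes can acquire them in inflammation.

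The promoters of the class I genes are shown because Nlrc5 and the interferon pathway act on short elements in them. RefSeq windows of GRCm38.p6, from 250 bases before to 50 bases after a gene's start, matched 6 of the 10 genes, B2m, H2-K1, H2-D1, Tap1, Psmb8 and Psmb9. The genes without an entry shown are Tap2, Nlrc5, H2-Ab1 and Cd74. The motifs were TGACG (the cAMP response element half-site of the X2 box), ATTGG (the Y box), a short interferon response element core (GAA, any 2 bases, GAAA), a long one (GAAA, any 2 bases, GAAA), and a kB-like site (GGGA, any 4 bases, CC). Each was searched on both strands, and kB-like matches on both strands overlap each other. Matches are in capitals in the 4 windows printed here, each 5′ to 3′ on the strand of its gene: B2m at chr2:122147437-122147736 (+), H2-K1 at chr17:34000298-34000597 (−, the first of its 2 windows), H2-D1 at chr17:35262844-35263143 (+) and Tap1 at chr17:34187306-34187605 (+).
B2m: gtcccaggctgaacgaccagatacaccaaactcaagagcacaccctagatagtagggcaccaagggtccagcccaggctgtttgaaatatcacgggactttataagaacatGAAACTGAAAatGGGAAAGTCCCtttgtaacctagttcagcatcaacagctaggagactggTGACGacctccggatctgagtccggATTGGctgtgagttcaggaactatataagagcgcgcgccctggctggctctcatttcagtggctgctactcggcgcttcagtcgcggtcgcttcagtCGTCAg
H2-K1: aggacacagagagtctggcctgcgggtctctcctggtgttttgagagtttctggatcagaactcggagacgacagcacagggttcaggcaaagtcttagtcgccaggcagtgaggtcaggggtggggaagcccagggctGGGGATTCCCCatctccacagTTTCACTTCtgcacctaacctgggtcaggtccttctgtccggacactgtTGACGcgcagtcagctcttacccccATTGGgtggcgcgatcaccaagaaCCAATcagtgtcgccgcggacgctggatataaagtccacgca
H2-D1: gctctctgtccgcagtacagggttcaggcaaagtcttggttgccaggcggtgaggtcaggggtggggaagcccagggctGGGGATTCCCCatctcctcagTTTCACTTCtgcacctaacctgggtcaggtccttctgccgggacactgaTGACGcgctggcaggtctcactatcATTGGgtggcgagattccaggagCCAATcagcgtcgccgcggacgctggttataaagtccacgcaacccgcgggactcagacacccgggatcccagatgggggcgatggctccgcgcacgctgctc
Tap1: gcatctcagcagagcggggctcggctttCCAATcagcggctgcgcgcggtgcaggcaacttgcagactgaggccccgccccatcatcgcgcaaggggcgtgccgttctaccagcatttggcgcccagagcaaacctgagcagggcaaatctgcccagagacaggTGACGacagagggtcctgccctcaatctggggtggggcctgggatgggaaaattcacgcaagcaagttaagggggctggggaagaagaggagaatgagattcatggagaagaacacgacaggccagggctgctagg
B2m, H2-K1 and H2-D1 each held TGACG followed on the same strand by ATTGG with 20 bases between them. A pair with 15 to 30 bases between, on either strand, was found in 0.575% of the 32851 windows of all genes, and in neither Tap1, Psmb8 nor Psmb9. The same 3 genes held a kB-like match, against 20.7% of all windows. B2m held GAAACTGAAA, a match to the long interferon core that 3.44% of windows hold, whereas H2-K1 and H2-D1 held TTTCACTTC, the reverse complement of a match to the short core that 7.52% of windows hold. TGACG was in 20.8% and ATTGG in 37.4% of all windows, and Tap1 held both as unlinked matches. The windows of Tap1 and Psmb9, which start on opposite strands, share 275 bases. Psmb8 held none of these letters. These matches describe letters in a window and not binding.

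B2m, H2-K1, H2-D1, Tap1, Tap2, Psmb8, Psmb9 and H2-Ab1 lie on mm10 chromosomes 2 and 17. In the gene models of the hepatocyte table, B2m (ENSMUSG00000060802) spans chr2:122147686-122153083 (+). On chromosome 17 lie H2-K1 (ENSMUSG00000061232, chr17:33996017-34000333, −), Psmb9 (ENSMUSG00000096727, chr17:34181988-34187764, −), Tap1 (ENSMUSG00000037321, chr17:34187553-34197225, +), Psmb8 (ENSMUSG00000024338, chr17:34197721-34201454, +), Tap2 (ENSMUSG00000024339, chr17:34203527-34216321, +), H2-Ab1 (ENSMUSG00000073421, chr17:34263209-34269418, +) and H2-D1 (ENSMUSG00000073411, chr17:35262730-35267499, +). Nlrc5 (ENSMUSG00000074151) spans chr8:94434356-94527272 (+) and Cd74 (ENSMUSG00000024610) chr18:60803848-60812646 (+). The Tap1 and Psmb9 models overlap over 212 bases on opposite strands, and whether counting used the strand is not given in the sources used here. H2 genes have near-identical relatives, and BALB/c carries other H2 alleles than the C57BL/6J reference, so the H2 levels are uncertain as absolute values; the size of this effect was not tested.

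Hepatocyte libraries held 14068906 to 27160365 fragments, cholangiocyte libraries approximately 37560000 to 40040000, and Smart-Seq libraries approximately 39890000 to 40520000. Libraries labelled Pri-Hep carried cholangiocyte markers at the level of the organoids: Krt19, a biliary keratin, was 229 to 241 FPKM in them and 235 to 247 FPKM in the 9 Hep-Orgs libraries, and Epcam was 265 to 275 FPKM and 261 to 281 FPKM. The hepatocyte enzyme Cyp2e1 was 0.0300 FPKM in 1 Pri-Hep library and listed at 0 in the other 11 libraries. The 6 hepatocyte markers, Cyp2e1 among them, summed to 549 to 584 FPKM in Pri-Hep and 564 to 610 FPKM in Hep-Orgs, with overlap. Krt19, Epcam and Cyp2e1 thus go against the label. The summed hepatocyte markers did not set these libraries apart from the Hep-Orgs, so that they do not bear the label out either. "Pri-Hep" below means the libraries so labelled. Cho-Orgs P0 replicate 2 stood apart. It had the highest P0 level of each of the 10 genes, by far for Cd74 and H2-Ab1. Cyp3a11, a hepatocyte enzyme, was at 31.3 FPKM in it against 148 and 68.1 FPKM in the other P0 libraries. Results for Cd74 and H2-Ab1 are given with and without that library, while P0 means, folds and ratios of other genes include it. The replicates are 3 mice by one passage of the study and independent cultures by another, so that p-values measure the spread between these libraries.

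In the Cho-Orgs, the class I machinery fell with passage. B2m, the heavy chains H2-K1 and H2-D1, and the immunoproteasome subunits Psmb8 and Psmb9 fell at each step, Tap1 fell after P5, and no change of Tap2 passed the test. Of the 10 genes, 9 reached 1 FPKM in 3 or more of the 9 libraries and were tested, and the exception was Nlrc5. At P5 against P0, 7 of the 9 tested genes were called lower (limma, adjusted p under 0.05) and none higher, where 22.6% of all 11593 genes tested were called lower and 34.0% higher. With median-ratio size factors in place of FPKM as deposited, 3449 of all genes were lower and 3087 higher at this step, against 2621 and 3938, and the same count of 7 was called. At P10 against P5, 7 of 9 were lower and none higher, with 30.5% of all genes lower and 31.0% higher. At P10 against P0, 8 of 9 were lower and none higher, with 31.3% of all genes lower and 41.0% higher. The median log2 fold change of the 9 was -0.72, -0.84 and -1.76 in the same order, where that of all tested genes was 0.062, 0.0055 and 0.069. H2-Ab1, listed at 0 at P10, lies on the lower side of the last 2 medians, which do not change with it at its bound. Counted by groups that do not overlap, every library was below every library of the earlier passage for 7, 7 and 8 of the 9, where 24.8%, 36.8% and 32.6% of all tested genes did so. The mean of H2-Ab1 and of Psmb9 at P10 was under 1 FPKM, so that the filter favoured their calls at P10. Without them 5 of 7 genes were called lower at P10 against P5 and 6 of 7 at P10 against P0, and at P5 against P0 all 9 had a mean of at least 1 FPKM in both groups. In bulk libraries, fewer cells expressing a gene cannot be told apart from less RNA per cell.

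**Figure D1:**
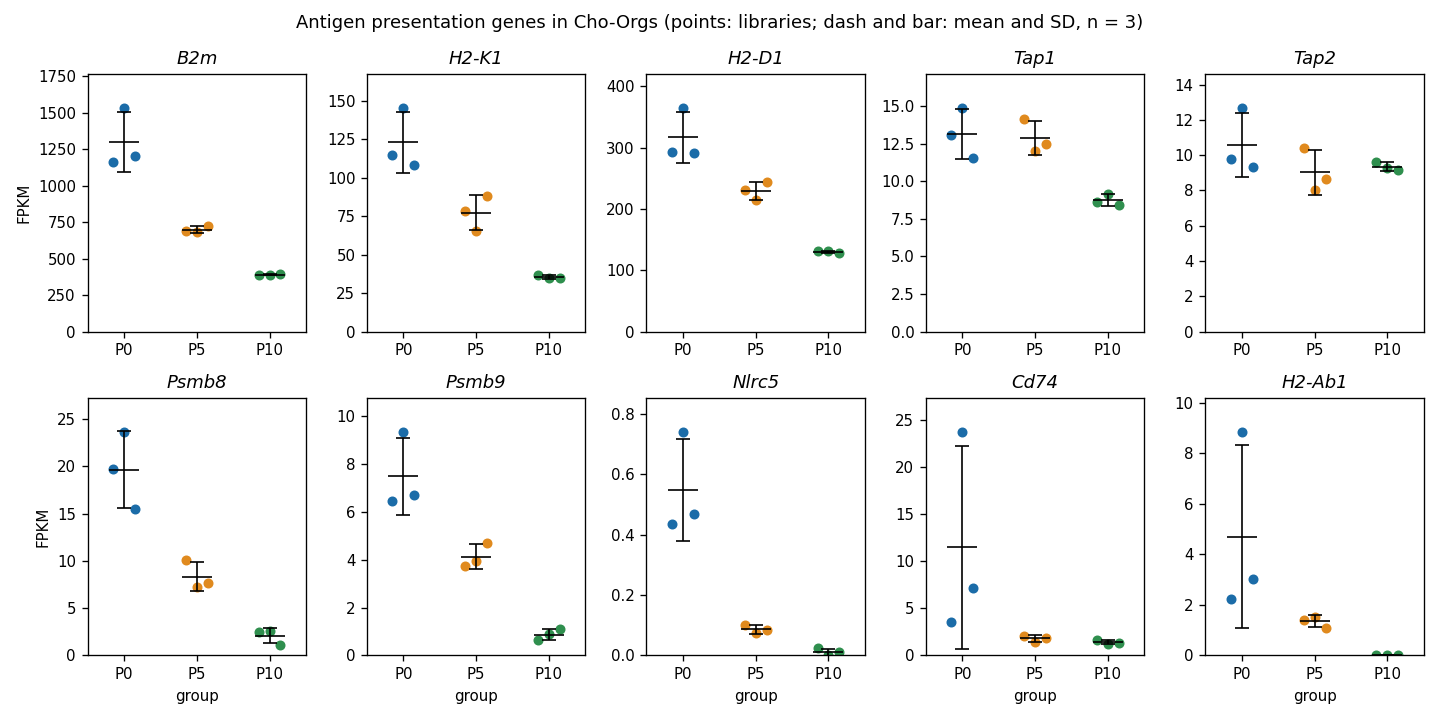
FPKM (y axis, from 0) of the 10 genes in Cho-Orgs at P0, P5 and P10 (x axis); points are libraries, and the dash and bar are the mean and SD of 3 libraries. Psmb8 falls from 15.5 to 23.6 FPKM at P0 to 1.16 to 2.62 FPKM at P10, Tap2 stays between 8.02 and 12.7 FPKM, and Cd74 at P0 is spread from 3.55 to 23.8 FPKM.

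B2m was the most abundant of the 10 in all 24 libraries, ahead of H2-D1 and H2-K1 in this order. In the Cho-Orgs, B2m had 1159.9, 1533 and 1201 FPKM at P0, 689, 683 and 725 FPKM at P5, and 385, 390.2 and 395 FPKM at P10. The passages did not overlap, and P0 replicate 2 was the highest library. In FPKM, its P0 mean of 1298 ± 204 went to 699 ± 22.8 by P5 and to 390.04 ± 5.04 by P10 (SD, n = 3), or 3.33-fold lower at P10 than at P0. The log2 fold change was -0.88 (SE 0.09, adjusted p = 3.52e-05) at P5 against P0, -0.84 (adjusted p = 4.17e-05) at P10 against P5 and -1.72 (adjusted p = 1.38e-07) at P10 against P0, by limma on log2(FPKM + 1) with Benjamini-Hochberg adjustment, as for the p-values that follow.

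H2-K1, a classical heavy chain, had 115, 146 and 109 FPKM at P0, 78.4, 65.3 and 88.4 FPKM at P5, and 36.9, 34.5 and 34.6 FPKM at P10. H2-D1, the other classical chain tested, had 293, 365 and 292 FPKM at P0, 230.4, 214 and 244 FPKM at P5, and 130.8, 131 and 128 FPKM at P10. For both chains each passage was wholly below the one before. The log2 fold change of H2-K1 was -0.66 (SE 0.12, adjusted p = 0.00131) at P5 against P0, -1.10 (adjusted p = 4.85e-05) at P10 against P5 and -1.76 (adjusted p = 8.61e-07) at P10 against P0. That of H2-D1 was -0.46 (SE 0.09, adjusted p = 0.00137), -0.81 (adjusted p = 3.38e-05) and -1.27 (adjusted p = 6.80e-07) in the same order. The 5 genes most like H2-K1 over the 9 libraries by Pearson's r of log2(FPKM + 1) were H2-D1 (r = 0.997), Anpep, Atp6v0e2, Ctsl and Ilrun (r = 0.989 for the last), a description over passages that share their libraries.

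Psmb8, an immunoproteasome subunit, had 19.7, 23.6 and 15.5 FPKM at P0, 10.1, 7.25 and 7.64 FPKM at P5, and 2.49, 2.62 and 1.16 FPKM at P10. Psmb9, its partner subunit, had 6.44, 9.33 and 6.68 FPKM at P0, 3.72, 3.95 and 4.71 FPKM at P5, and 0.635, 0.895 and 1.08 FPKM at P10. Neither gene had overlapping passages. Psmb8 was lower by 9.40-fold in the mean at P10 against P0 (log2 fold change -2.76, SE 0.21, adjusted p = 1.69e-06), with -1.14 (adjusted p = 0.00135) at P5 against P0 and -1.62 (adjusted p = 0.000127) at P10 against P5. Psmb9 was lower by 8.59-fold in the mean over the same span (log2 fold change -2.17, SE 0.14, adjusted p = 4.44e-07), with -0.72 (adjusted p = 0.00166) and -1.46 (adjusted p = 1.67e-05) for the 2 steps.

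Each immunoproteasome subunit replaces 1 constitutive subunit, Psmb8 for Psmb5, Psmb9 for Psmb6 and Psmb10 for Psmb7, and their ratio within a library does not depend on its scaling. In Cho-Orgs the Psmb8/Psmb5 ratio was 0.379 ± 0.108 at P0, 0.174 ± 0.0295 at P5 and 0.0391 ± 0.0171 at P10 (SD, n = 3), and the libraries of the passages did not overlap. The Psmb9/Psmb6 ratio was 0.0763 ± 0.0150, 0.0498 ± 0.00671 and 0.00928 ± 0.00212 in the same order, also without overlap. The Psmb10/Psmb7 ratio was 0.117 ± 0.00930 at P0, 0.0675 ± 0.0123 at P5 and 0.0770 ± 0.0118 at P10, so that P5 and P10 overlapped. In the hepatocyte table the means of the 4 groups were 0.0880 to 0.110 for Psmb8/Psmb5 and 0.0151 to 0.0177 for Psmb9/Psmb6, while Psmb10/Psmb7 was 0.475 to 0.608. Among the constitutive genes in the Cho-Orgs, no change of Psmb5 passed the test, Psmb6 fell by P5 (log2 fold change -0.24, adjusted p = 0.00618), and Psmb7 fell by P10 against P0 (-0.26, adjusted p = 0.00706).

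**Figure D2:**
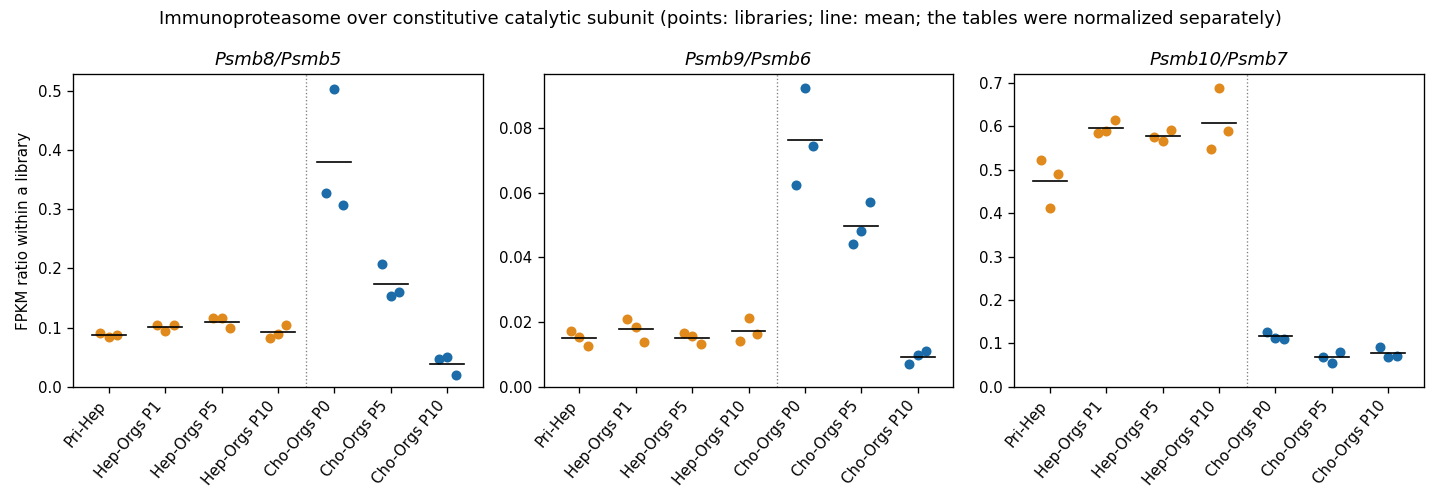
Ratio of the FPKM of an immunoproteasome subunit to its constitutive counterpart (y axis, from 0) in each bulk library, by group (x axis); points are libraries, lines are means of 3, and the dotted line separates tables normalized separately. In Cho-Orgs the Psmb8/Psmb5 ratio drops from a mean of 0.379 at P0 to 0.0391 at P10, while in the hepatocyte table the group means stay between 0.0880 and 0.110.

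Tap1 and Tap2 form the peptide transporter. Tap1 had 13.1, 14.9 and 11.5 FPKM at P0, 14.2, 12.03 and 12.5 FPKM at P5, and 8.61, 9.17 and 8.42 FPKM at P10. P0 and P5 overlapped, and all P10 libraries were below both. Its log2 fold change was -0.023 (SE 0.09, adjusted p = 0.839) at P5 against P0, -0.51 (adjusted p = 0.000818) at P10 against P5 and -0.53 (adjusted p = 0.000411) at P10 against P0. Tap2 had 9.76, 12.7 and 9.35 FPKM at P0, 10.4, 8.02 and 8.63 FPKM at P5, and 9.63, 9.29 and 9.16 FPKM at P10, with overlap between all passages. At P10 against P0 its log2 fold change was -0.15 (SE 0.11, adjusted p = 0.253). The Tap1/Tap2 ratio was 1.25 ± 0.0845 at P0, 1.43 ± 0.0729 at P5 and 0.933 ± 0.0482 at P10 (SD, n = 3).

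Nlrc5 had 0.434, 0.740 and 0.469 FPKM at P0, 0.1003, 0.0729 and 0.0857 FPKM at P5, and 0.0232, 0 and 0.0101 FPKM at P10. The passages did not overlap, but the values at P10 rest on about 7.5, 0 and 3.2 fragments, at or near the floor of 3 fragments, so that no fold is given. When all genes with an FPKM above 0 were tested instead, the log2 fold change was -0.51 (adjusted p = 0.000806) at P5 against P0, -0.10 (adjusted p = 0.293) at P10 against P5 and -0.61 (adjusted p = 0.000153) at P10 against P0, on a scale that understates changes of so low a gene.

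The class II genes were low and uneven. Cd74 had 3.55, 23.8 and 7.15 FPKM at P0, 2.11, 1.45 and 1.86 FPKM at P5, and 1.69, 1.23 and 1.34 FPKM at P10. All P0 libraries were above all later ones, P5 and P10 overlapped, and P0 replicate 2 was far above the other P0 libraries. The log2 fold change of Cd74 was -1.80 (SE 0.47, adjusted p = 0.00912) at P5 against P0 and -2.01 (adjusted p = 0.00347) at P10 against P0, and without P0 replicate 2 it was -1.12 (adjusted p = 0.00165) and -1.34 (adjusted p = 0.000355). At P10 against P5 it was -0.21 (adjusted p = 0.718). H2-Ab1 had 2.25, 8.84 and 3.01 FPKM at P0, 1.42, 1.54 and 1.09 FPKM at P5, and was listed at 0 in all P10 libraries. The floor of 3 fragments per library was set with the gene length of the hepatocyte table. Against this approximate floor, H2-Ab1 at P10 was at least 96.3-fold lower than the mean at P0. H2-Ab1 was at least 53.9-fold lower than the P0 mean without replicate 2, and at least 27.7-fold lower than the mean at P5. At P5 against P0, its log2 fold change was -1.11 (SE 0.33, adjusted p = 0.0160), -0.62 (adjusted p = 0.00121) without P0 replicate 2 and -1.02 (adjusted p = 0.0537) without P5 replicate 3, which ended the call. The alpha chain H2-Aa, the partner of H2-Ab1, was listed at 0 in all 9 libraries, and Ciita, the coactivator of class II genes, was at most 0.018 FPKM. The genes most like Cd74 were Alpl (r = 0.982), Sparc, Tns1, Rassf4 and Cd151 (r = 0.971), over the same 9 libraries.

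Markers of immune cells moved with passage beside Cd74 and H2-Ab1. The summed FPKM of 10 Kupffer cell and macrophage markers was 11.7 to 18.5 at P0, 0.307 to 0.612 at P5 and 0.647 to 0.887 at P10. Most of it at P0 was Lyz2, a macrophage lysozyme, with 9.63, 14.1 and 15.8 FPKM at P0 and 0 in every later library. Of the other markers, Clec4f, Vsig4 and Timd4 were listed at 0 in all P0 libraries. Adgre1 was 0.194 to 0.619 FPKM at P0, C1qa 0.486 to 0.899, C1qb 0.0907 to 0.742 and Marco 0 to 0.0521 FPKM, and these 4 were at 0 in every P5 library. Cd5l was at most 0.113 FPKM and Csf1r 0.343 to 0.814 FPKM at P0, and Csf1r was 0.647 to 0.887 FPKM at P10. Ptprc, the leukocyte common antigen, was 0.0171 to 0.0523 FPKM at P0 and 0 later. P0 replicate 2 had the middle Lyz2 value and the highest Cd74. Of 3 T and NK cell markers, Cd3e was 2.36 to 2.79 FPKM at P5 against 0.118 to 0.627 at P0, with Cd3g and Ncr1 at 0 throughout. Of 6 dendritic cell markers, 5 were at 0 in all P0 libraries, and the summed B cell markers were at most 0.393 FPKM at P0. Of 6 hepatocyte markers, Alb fell from 4526 to 5254 FPKM at P0 to 0.534 to 0.647 FPKM at P10. The part of these cells in the change of the 10 genes was not tested.

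Of 49 further genes in 5 pathway lists, 33 were tested in the Cho-Orgs. At P5 against P0, 15 were lower and 5 higher, where 22.6% and 34.0% of all genes tested were so. At P10 against P5, 15 were lower and 6 higher, beside 30.5% and 31.0% of all genes. At P10 against P0, 20 were lower and 8 higher, beside 31.3% and 41.0%. Of 7 tested class I relatives, 6 were lower and 1 higher at P10 against P0. The liver class I gene H2-Q10 went from 70.9 ± 10.1 FPKM at P0 to 23.4 ± 0.986 at P5 and 6.71 ± 0.721 at P10 (SD, n = 3; log2 fold change at P10 against P0 -3.21, adjusted p = 5.11e-09). H2-Q4 went from 40.9 ± 1.95 FPKM to 12.8 ± 0.752 (-1.61, adjusted p = 1.65e-08), and H2-T23, the chain of Qa-1, from 69.2 ± 5.13 to 26.2 ± 2.41 (-1.37, adjusted p = 3.40e-06). Cd1d1, which presents lipids to NKT cells, went from 1.19 ± 0.119 to 0.0608 ± 0.0289 FPKM (-1.05, adjusted p = 1.08e-05), and it passed the filter through P0 alone, so that its call was favoured by the filter. The call in the other direction was H2-M3, named after its value was seen, with 0.53 (adjusted p = 0.00168).

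Of 13 tested genes of peptide supply other than the members, 8 were lower and 2 higher at P10 against P0, beside 31.3% and 41.0% of all genes. Tapbp, tapasin, which bridges TAP and the heavy chain, had means of 84.0 ± 3.84, 87.2 ± 11.4 and 38.6 ± 1.33 FPKM over the passages in order, with log2 fold changes of 0.047 (adjusted p = 0.665) at P5 against P0 and -1.15 (adjusted p = 3.88e-06) at P10 against P5. Its relative Tapbpl was 7.07 ± 1.04, 3.92 ± 0.389 and 8.23 ± 0.303 FPKM, lower at P5 (-0.71, adjusted p = 0.000164) and higher again at P10 against P5 (0.91, adjusted p = 2.90e-05). The immunoproteasome subunit Psmb10 fell from 11.9 ± 2.14 to 5.87 ± 1.05 FPKM by P5 (-0.91, adjusted p = 0.000415) and was 6.50 ± 0.744 FPKM at P10 (0.13 against P5, adjusted p = 0.435). Erap1, the trimming peptidase, fell from 9.66 ± 0.531 to 4.84 ± 0.206 FPKM at P10 (-0.87, adjusted p = 1.12e-06).

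Of 10 tested regulators, 4 were lower and 4 higher at P10 against P0, near the 31.3% and 41.0% of all genes. The interferon gamma receptor chain Ifngr2 fell from 47.4 ± 5.20 to 25.4 ± 0.835 FPKM (log2 fold change -0.87, adjusted p = 4.48e-06), and the kinase Jak1 from 27.1 ± 0.492 to 18.3 ± 0.577 FPKM (-0.54, adjusted p = 3.75e-06). The other receptor chain, Ifngr1, rose from 62.3 ± 6.82 to 125 ± 3.47 FPKM (1.00, adjusted p = 1.33e-06). Of 11 class II genes and chaperones other than members, 2 were tested: the thiol reductase Ifi30 fell from 127 ± 19.5 to 55.9 ± 1.30 FPKM (-1.16, adjusted p = 2.19e-06) and H2-DMa rose from 0.397 ± 0.00782 to 1.03 ± 0.120 FPKM (0.54, adjusted p = 0.000116), though H2-DMa passed the filter through P5 and P10, which favoured its call. Of 5 costimulatory genes, only Icosl was tested, and it fell from 2.27 ± 0.245 to 1.46 ± 0.0786 FPKM (-0.41, adjusted p = 0.000728).

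**Figure D3:**
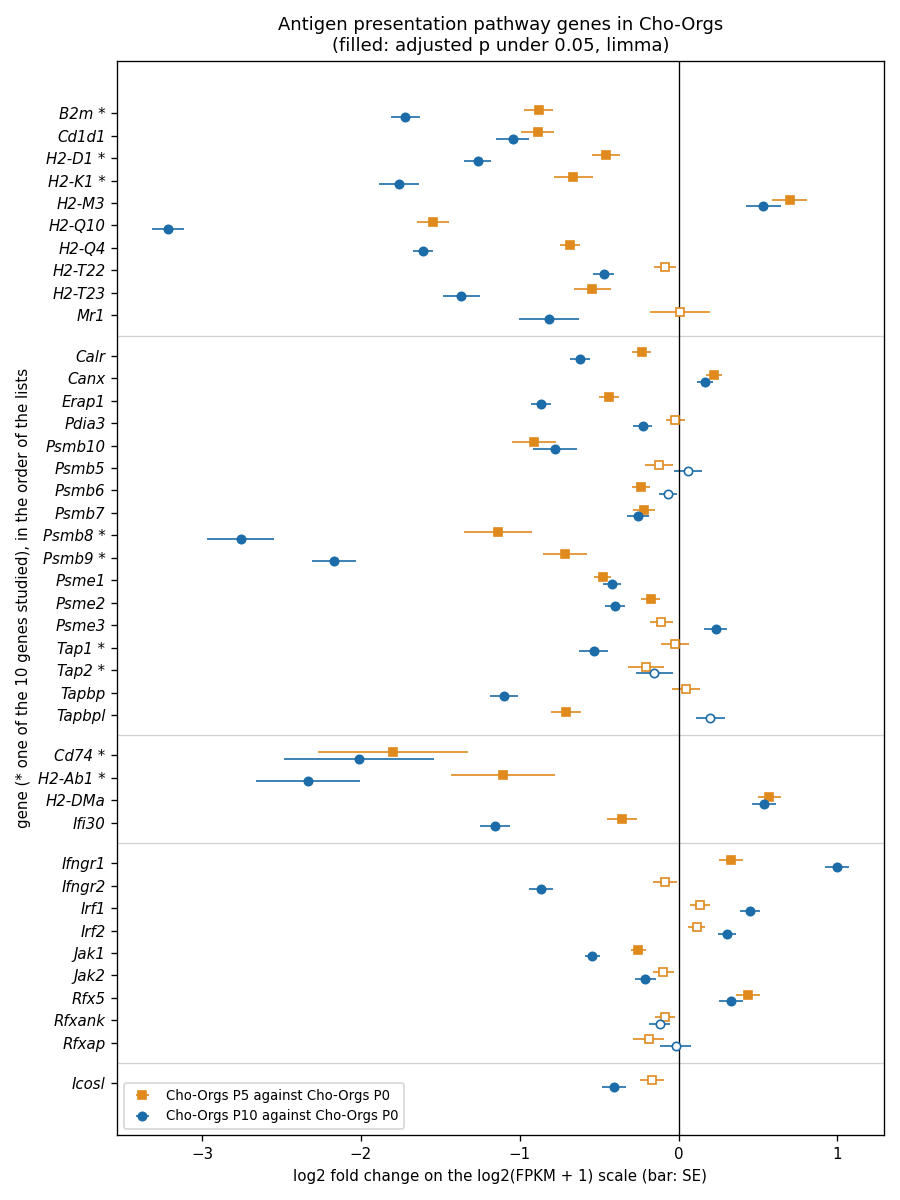
log2 fold change on the log2(FPKM + 1) scale (x axis, bar: SE) of tested pathway genes (y axis, grouped by list) at P5 (squares) and P10 (circles) against P0 in Cho-Orgs; filled symbols passed an adjusted p of 0.05, stars mark the 10 genes, and both comparisons share the P0 libraries. Psmb8 and Psmb9 lie beyond -2 at P10, while Ifngr1 lies at 1.00.

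In the hepatocyte table, no difference of the 10 genes passed the test. Of the 10, 6 were tested (B2m, H2-D1, H2-K1, Tap1, Tap2 and Psmb8), and 0 were called in each of 4 comparisons. Over all 10986 genes tested by limma, 1 was called at P1 against Pri-Hep (0.0091%), 1 at P5 against Pri-Hep (0.0091%), and 0 at P10 against Pri-Hep (0.0%) and P10 against P1 (0.0%). At an unadjusted p under 0.05, 911, 1184, 730 and 986 genes passed in that order, and 3, 3, 0 and 2 of the 6. By limma-voom on the recovered fragments, 30, 39, 0 and 29 genes were called, and none of the 6. The background is close to 0, so the absence of calls says little about these 6 genes in particular. Libraries of different groups also differed little more than replicates over all genes. The chi-square per degree of freedom of the fragments of 2 libraries had a median of 2.48 (1.80 to 4.36) over 54 pairs between groups. Over 12 pairs within a group it was 2.17 (1.90 to 3.04). The level values below are thus not particular to these genes.

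B2m had 361, 375 and 347 FPKM in Pri-Hep, 334, 350.2 and 342 FPKM at P1, 345, 325 and 342 FPKM at P5, and 369, 355 and 365 FPKM at P10. H2-K1 had 19.3, 16.5 and 18.5 FPKM in Pri-Hep, 19.6, 20.6 and 24.8 FPKM at P1, 19.7, 20.8 and 21.9 FPKM at P5, and 20.9, 21.3 and 17.5 FPKM at P10. The log2 fold change of H2-K1 at P1 against Pri-Hep was 0.24 (SE 0.09, adjusted p = 0.493). Psmb8 had 2.11, 1.71 and 2.05 FPKM in Pri-Hep, 2.23, 2.37 and 2.55 FPKM at P1, 2.60, 2.56 and 2.46 FPKM at P5, and 1.90, 2.08 and 2.35 FPKM at P10. Its log2 fold change of 0.26 (SE 0.07, adjusted p = 0.247) at P5 against Pri-Hep was the largest among the 6 in any of the 4 comparisons.

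The others were level over the 12 libraries, at 71.7 to 81.0 FPKM for H2-D1, 3.43 to 4.22 FPKM for Tap1 and 2.74 to 3.37 FPKM for Tap2. Below the filter were Psmb9 at 0.456 to 0.742 FPKM (26 to 74 fragments), Cd74 at 0.303 to 0.807 FPKM (6 to 31 fragments), Nlrc5 at 0.0197 to 0.108 FPKM (3 to 16 fragments) and H2-Ab1 at 0 to 0.130 FPKM (0 to 3 fragments, at or under the floor). Of the 10 Kupffer cell and macrophage markers, 8 or 9 were at 0 in every library of a group. Among the 49 further pathway genes, 30 were tested and none was called in any of the 4 comparisons.

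**Figure D4:**
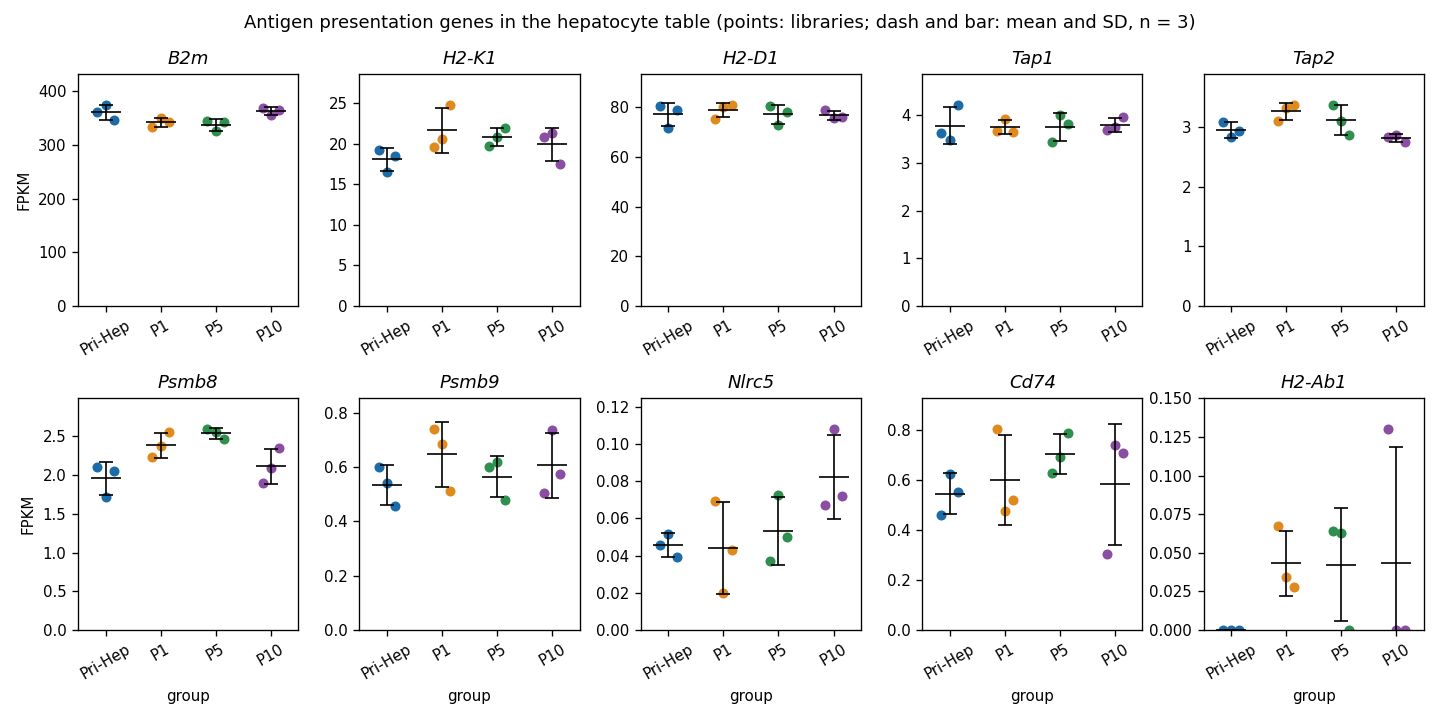
FPKM (y axis, from 0) of the 10 genes in libraries labelled Pri-Hep and in Hep-Orgs at P1, P5 and P10 (x axis); points are libraries, and the dash and bar are the mean and SD of 3 libraries. B2m lies between 325 and 375 FPKM in all 12 libraries, and H2-Ab1 is at 3 fragments or fewer.

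In the picked P0 organoids, Cd74, H2-Ab1, Nlrc5, B2m and H2-D1 were highest in the grape-like and lowest in the round-like library. The other 5 genes were not in this order. H2-D1 was close in the intermediate (236 FPKM) and round-like (232 FPKM) libraries. The share of all genes in this order was not counted, so that the order is a description only. With 1 library per subtype there is no test, and a difference was counted past 1 on the log2(FPKM + 1) scale. In grape-like against round-like, 2 of 10 genes were higher, Cd74 and H2-Ab1, and none lower, where 12.9% of 12595 genes were higher and 8.82% lower. In intermediate against round-like, none of the 10 passed in either direction, where 3.85% were higher and 2.54% lower. In grape-like against intermediate, none passed, where 9.71% were higher and 7.15% lower. Intervals given for ratios are exact 95% intervals, they cover counting error only, and the cDNA was amplified without molecular identifiers.

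Cd74 went from 15.004 FPKM (grape-like) through 9.43 (intermediate) to 4.42 (round-like), a grape-like to round-like ratio of 3.39 (2.94 to 3.92). H2-Ab1 had 3.64, 1.62 and 0.520 FPKM in the same order, a ratio of 7.004 (4.94 to 10.5). Nlrc5 had 2.26, 1.10 and 0.640 FPKM, a ratio of 3.53 (3.03 to 4.12), and at 0.99 on the log2(FPKM + 1) scale it was just under the limit. For these 3 genes the order was grape-like, intermediate, round-like.

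B2m, in the same order of libraries, had 1547, 1198 and 892 FPKM, a grape-like to round-like ratio of 1.74 (1.71 to 1.76). H2-D1 had 372, 236 and 232 FPKM, a ratio of 1.61 (1.58 to 1.63), and H2-K1 had 96.6, 69.8 and 95.5 FPKM, a ratio of 1.01 (0.984 to 1.04). For H2-K1, Psmb8 and Psmb9 the intermediate library was the lowest. Psmb8 had 59.5, 39.2 and 55.1 FPKM, and Psmb9 13.6, 9.11 and 13.1 FPKM. Tap1, at 18.9, 17.3 and 19.4 FPKM, had a grape-like to round-like ratio of 0.978 (0.937 to 1.02), and Tap2, at 17.0, 17.8 and 17.7 FPKM, one of 0.962 (0.911 to 1.02), so that both intervals held 1.

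Macrophage, dendritic cell, B cell and endothelial markers, but not T and NK cell markers, were in the same order. The summed FPKM of the 10 Kupffer cell and macrophage markers went from 9734 in the grape-like library through 2794 to 1539 in the round-like one, and all 10 were higher past 1 in log2 in grape-like against round-like. Lyz2 had 5942, 1792 and 887 FPKM, and Ptprc 28.8, 7.72 and 5.19 FPKM. The summed liver sinusoidal endothelium markers were 60.6, 24.5 and 10.3 FPKM, the dendritic cell markers 12.6, 4.31 and 2.25 FPKM, and the B cell markers 7.18, 3.66 and 1.67 FPKM. The T and NK cell markers listed summed to 0.0165, 0.0405 and 0.164 FPKM, the reverse order, close to the floor in the first 2 libraries. Epithelial markers moved too: the 5 cholangiocyte markers summed to 845, 3351 and 2743 FPKM and the 6 hepatocyte markers to 4667, 7108 and 1145 FPKM. Of the class II partners of Cd74 and H2-Ab1, H2-Aa was at 0.133, 0.132 and 0 FPKM, H2-DMa at 1.37, 0.660 and 0.820 FPKM and Ifi30 at 143, 93.3 and 117 FPKM, the last 2 lowest in the intermediate library. Of the 3 compared, 1 was higher past 1 in log2 in grape-like against round-like, namely Ctss, the cathepsin that trims the invariant chain, which was at 429, 102 and 68.5 FPKM. Of 5 costimulatory genes, 3 were higher past 1 in log2 in grape-like against round-like, among them Cd86 at 17.5 against 3.89 FPKM. Of the other class I genes 1 of 7 was higher, of peptide supply 0 of 13 and of the regulators 0 of 10. The part of these cells in the values of the 10 genes was not tested.

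**Figure D5:**
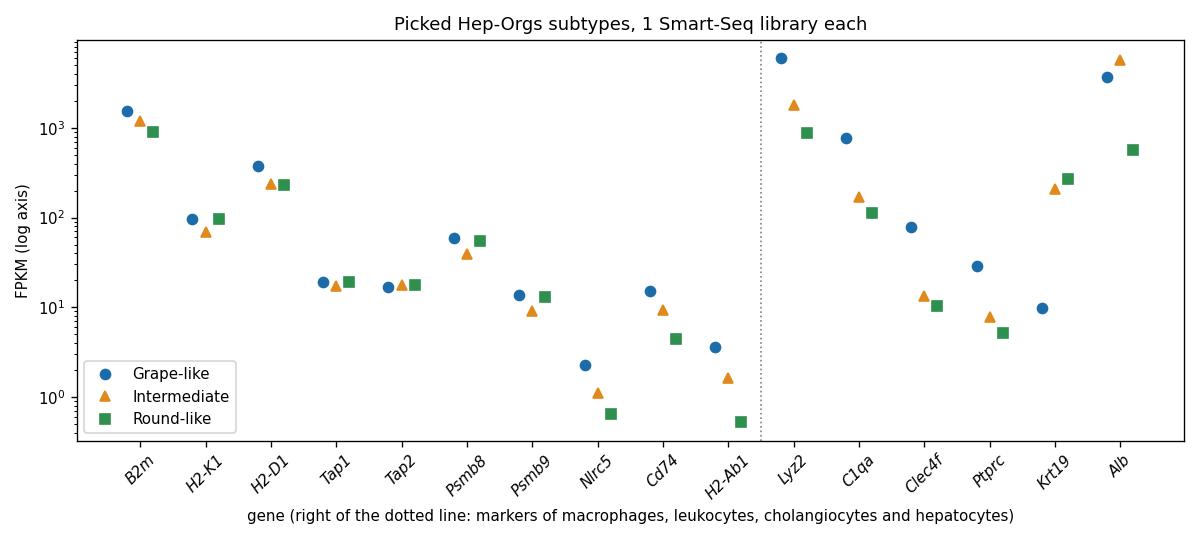
FPKM (y axis, log scale) of the 10 genes and, right of the dotted line, of markers of macrophages (Lyz2, C1qa, Clec4f), leukocytes (Ptprc), cholangiocytes (Krt19) and hepatocytes (Alb) (x axis) in the 3 Smart-Seq libraries; each symbol is 1 library. Cd74 falls from 15.004 FPKM in the grape-like to 4.42 FPKM in the round-like library and Lyz2 from 5942 to 887 FPKM, while Tap2 lies between 17.0 and 17.8 FPKM.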

How the data were processed

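The 21 bulk poly(A) and 3 Smart-Seq libraries were deposited as 3 tables of FPKM, computed by the authors and normalized per table. The submitters' processing notes name mm10, featureCounts 2.0.3 and edgeR 3.40.2; the aligner is not given in the sources used here. The bulk reads are stated to be strand-specific, but the counting setting is not given. In the hepatocyte table FPKM times gene length was a whole multiple of 1 fragment in 100.0% of values (tolerance 0.02), which gave fragments. Depth in the other tables was estimated from single-transcript genes of GENCODE M21 and is approximate. Fragments, floors and intervals in those tables use the gene lengths of the hepatocyte table, so that they are approximate too. Of 31053 identifiers in the hepatocyte table, 29769 have the coordinates of GENCODE M21.

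Values were compared as log2(FPKM + 1) with limma 3.58.1 in R 4.3.3 (lmFit, eBayes with trend, two-sided, all groups of a table in 1 fit) for genes that reached 1 FPKM in 3 or more libraries, and p-values were adjusted by Benjamini-Hochberg over all genes tested, with a threshold of 0.05. A fold change on this scale understates the change of low genes. The Smart-Seq libraries were compared as ratios without a test, with exact (Clopper-Pearson) 95% intervals on approximate fragments. The floor was 3 fragments per library, and intervals and floors cover counting error only. Other steps ran in Python 3.11.15 (scipy 1.17.1, pandas 2.3.3, numpy 2.4.6; figures with matplotlib 3.10.9). The models were tested on simulated data.

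The 10 genes and the pathway and marker lists were chosen with earlier results of these data known. All 10 were named. From each pathway list up to 4 other genes with the largest change between any 2 Cho-Orgs passages were named, and for H2-K1 and Cd74 the 5 genes with the highest Pearson's r. The counts over the regulators include 1 gene that is not reported here. Alternatives were another pseudocount, other filters, median-ratio size factors, TPM, a replicate block, 2 groups alone, eBayes without trend, leaving out each library and, for the hepatocyte table, limma-voom. The replicate numbers were not taken as pairs. The median correlation of deviations between same-numbered libraries of different groups was -0.0016 over 18 pairs in the hepatocyte table. In the cholangiocyte table it was -0.0063 over 9 pairs. The Cho-Orgs titles repeat the letter M with the replicate number at each passage, and with 3 libraries per group this correlation cannot exclude pairing.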

Additional observations from a re-analysis of the deposited data

How the results depend on the processing

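The numbers of the 10 genes called were recomputed under each alternative. In the Cho-Orgs, they moved beyond 1.5 times under 1 setting: with genes of a mean FPKM of at least 5, which left 6 of the 10 genes to test, 4 were called at P5 against P0 and 5 at P10 against P0. Leaving out 1 library at a time gave 6 to 7 genes at P5 against P0, 7 at P10 against P5 and 8 at P10 against P0. With a replicate block the counts were 7, 7 and 8, and 0 in each of the 4 comparisons of the hepatocyte table. The block changed no call of the 10 genes, and the numbers were not shown to pair the libraries. In the hepatocyte table the count was 0 under all settings run, including each left-out library. Median-ratio size factors were 1.002 in every library of that table, so that this setting could hardly differ from the main one. Over all genes, limma-voom called 30 genes against 1 at P1 against Pri-Hep, 39 against 1 at P5 against Pri-Hep and 29 against 0 at P10 against P1. The other settings gave 0 to 7 genes in the 4 comparisons, the highest at P5 against Pri-Hep with a mean FPKM of at least 5.

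In the Smart-Seq table the count past 1 in log2 for intermediate against round-like rose from 0 to 2 with a pseudocount of 0.1 and to 1 with TPM or median-ratio size factors. For grape-like against intermediate it rose from 0 to 1 with a pseudocount of 0.1 or TPM. The smaller pseudocount adds weight to low genes by construction, and for the scalings the cause was not tested. Of the log2 ratios of single genes over all alternatives and the Smart-Seq comparisons, 38 moved by more than their counting error and 82 did not.

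Directions turned for 2 genes that were not called. Tap1 at P5 against P0 had a log2 fold change of 0.018 with TPM, and -0.11 to 0.062 when each library was left out. Tap2 at P10 against P5 had -0.019 to 0.15 when each library was left out, with the value below 0 without P5 replicate 2. H2-Ab1 at P5 against P0 lost its call when all genes with an FPKM above 0 were tested (adjusted p = 0.0513, limma) and without P5 replicate 3 (adjusted p = 0.0537). Groups of 3 libraries, and 1 library per Smart-Seq subtype, limit the precision, and Nlrc5 and H2-Ab1 are at or near the floor in several groups.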
